A study of Mus musculus with 2 samples.

Results

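The DNA replication machinery was followed in RNA from the developing mouse face as 51 genes, taken from 43346 mouse gene IDs in the deposited tables. They were chosen by name, as genes whose products choose and open replication origins, copy DNA at the fork, join the new fragments, supply nucleotides and pack the new strand into chromatin. Every one of the 51 symbols matched 1 gene ID, and none was dropped by a filter. The rule for the choice uses no measured value, but the list was drawn up with earlier results of these data known.

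A replication origin is first marked by the origin recognition complex, and the loading factors Cdc6 and Cdt1 then place a ring of Mcm2 to Mcm7 on the DNA, a step called licensing. The kinase of Cdc7 and Dbf4 later switches the ring on with Cdc45 and the GINS complex, and polymerases with their clamp copy both strands. In a growing embryo most cell populations divide, and the genes of this machinery are known targets of the E2F transcription factors, which switch on S-phase genes.

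The series holds 1 group of samples, the embryonic facial prominence of strain B6NCrl mice at 12.5 days of development, and the labels name no treatment, mutation or control group. Facial prominences are the swellings that fuse into the face. Replicate 1 pooled tissue from 120 embryos and replicate 2 from 88 embryos, male and female together, and 10 ng of RNA entered each library. The samples carry different biosample labels and 1 shared donor label, so the spread between them is that between 2 large pools and may be partly technical. With 1 group and 2 libraries no comparison between conditions exists and no exact test can be made, so values are given as measured. Pairs of values below are in the order replicate 1, replicate 2, and ± is the SD over the 2 libraries (n = 2).

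Expected counts, the estimated reads per gene, summed to 27890681 in replicate 1 and 39969716 in replicate 2, so the deeper library had the smaller pool. Checked against markers of the labelled tissue, 6 of 6 facial mesenchyme genes and 4 of 4 surface epithelium genes were at 10 TPM or more in both libraries, led by the homeobox gene Msx1 at 331 ± 7.67 TPM and the keratin gene Krt14 at 95.5 ± 6.24 TPM. TPM scales each gene's reads by its length and by the library total, so it can be compared between genes of a library. Other cell types were present: Hbb-y, an embryonic globin of red blood cells, stood at 7393 ± 477 TPM, Actc1, a muscle actin, at 198 ± 24.2 TPM, and Tubb3, a neuronal tubulin, at 144 ± 31.9 TPM. Of 3 forebrain genes only 1 was at 10 TPM or more in both libraries, Emx2 at 18.4 ± 1.82 TPM. The 3 together summed to 24.3 and 21.1 TPM, so the others were low. Of 4 trunk Hox genes the highest, Hoxb9, was at 0.075 TPM, with Hoxc6 and Hoxc9 listed at 0. In such bulk tissue, fewer cells of a type and less RNA per cell cannot be told apart.

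All 51 members reached 10 TPM in both libraries, a level reached by 41.7% of 21474 protein-coding genes. Their median level was 90.6 TPM, against 5.24 TPM for all protein-coding genes, and 8.57% of protein-coding genes were at or above the members' median. Levels ran from 12.9 ± 1.52 TPM for Orc1 to 246 ± 10.2 TPM for Rrm2, a 19.1-fold range. Of the members, 19 stood at 100 TPM or more, 17 between 50 and 100 TPM, and 15 under 50 TPM. The counts behind them ran from 515 for Orc1 to 11016 for Mcm6 in replicate 1. The 95% Poisson interval of the count was accordingly 8.73% wide on each side for Orc1 and 1.87% for Mcm6, which covers counting error only. Along the order of levels, the 2 libraries of one gene and those of the next did not overlap in 20 of 50 neighbouring pairs, so the order between close neighbours is often unresolved.

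**Figure D1:**
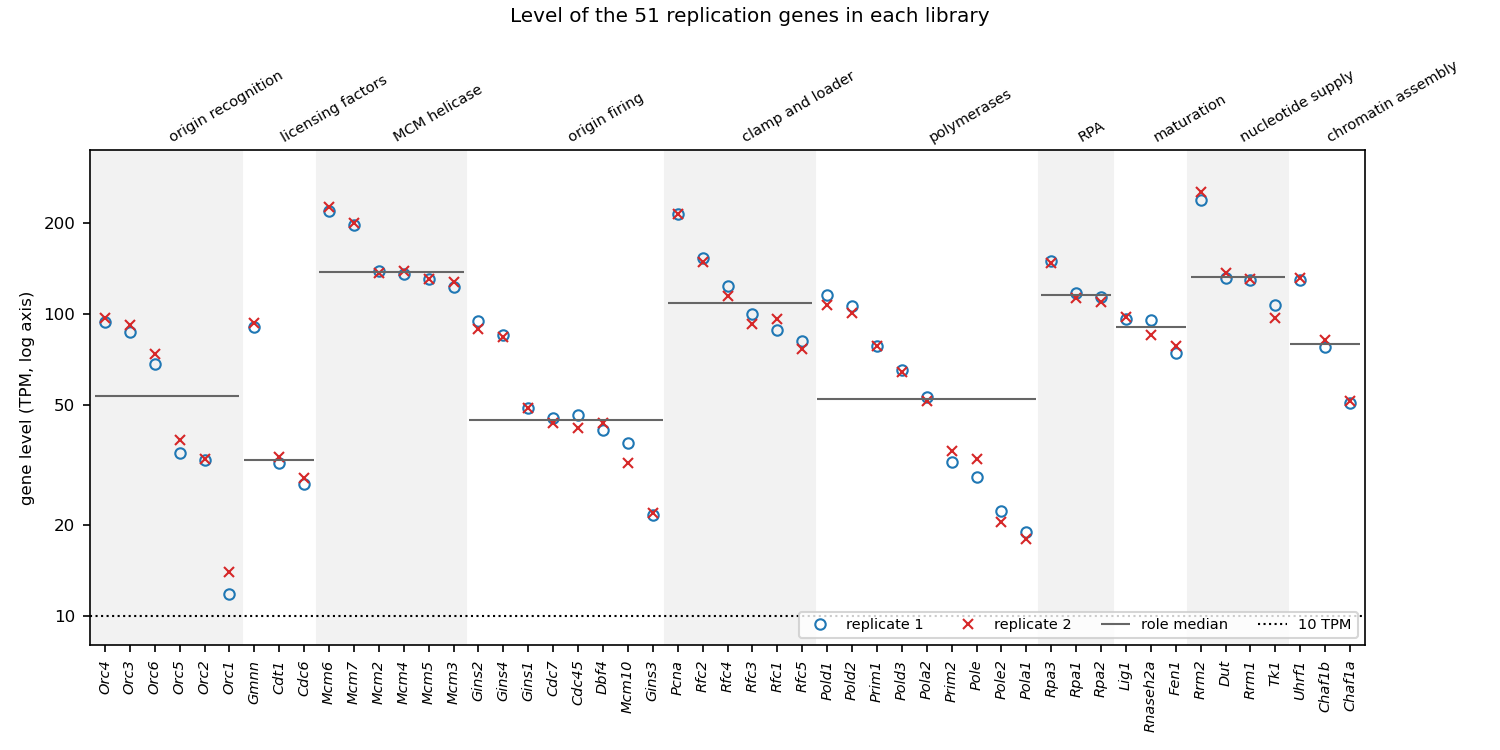
Level of each member (TPM, log axis) in replicate 1 (circles) and replicate 2 (crosses), grouped by role, with the median of each role as a grey line and 10 TPM dotted. The MCM helicase genes sit between 125 and 223 TPM, while origin recognition genes spread from 12.9 to 95.6 TPM.

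Promoter sequences are set beside these levels because E2F proteins bind a known short motif. RefSeq promoter windows (GRCm38.p6, 250 bases before to 50 after each gene's start) were in the table for 43 of 51 members. Stretches before the start are shown for the lowest member, Orc1, the lowest polymerase gene, Pola1, 2 of the MCM genes, Mcm5 and Mcm6, and the highest member, Rrm2. Most exon bases of the gene or a neighbour were left out, so lengths differ. Each is written 5′ to 3′ on the gene's strand, and capitals mark any match to the E2F motif searched here on both strands, TTTGGCGC, TTTCCCGC, TTTGCCGC or TTTCGCGC, so that a match on the other strand appears reversed and complemented.
Orc1 (chr4:108579337-108579434, + strand): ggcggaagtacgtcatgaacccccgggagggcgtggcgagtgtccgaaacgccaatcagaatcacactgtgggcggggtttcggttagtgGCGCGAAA
Pola1 (chrX:93632156-93632335, - strand): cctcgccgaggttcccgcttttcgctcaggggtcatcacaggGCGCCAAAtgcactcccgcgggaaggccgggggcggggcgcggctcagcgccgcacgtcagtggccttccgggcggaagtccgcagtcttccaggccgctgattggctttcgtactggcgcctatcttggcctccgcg
Mcm5 (chr8:75109329-75109508, + strand): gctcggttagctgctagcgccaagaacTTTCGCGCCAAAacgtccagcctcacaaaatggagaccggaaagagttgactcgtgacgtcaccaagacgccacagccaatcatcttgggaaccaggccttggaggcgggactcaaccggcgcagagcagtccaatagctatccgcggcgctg
Mcm6 (chr1:128359706-128359885, - strand): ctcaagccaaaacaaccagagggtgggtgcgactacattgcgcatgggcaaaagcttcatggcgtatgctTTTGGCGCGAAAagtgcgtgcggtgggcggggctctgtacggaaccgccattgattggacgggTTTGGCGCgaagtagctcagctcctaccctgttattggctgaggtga
Rrm2 (chr12:24708074-24708240, + strand): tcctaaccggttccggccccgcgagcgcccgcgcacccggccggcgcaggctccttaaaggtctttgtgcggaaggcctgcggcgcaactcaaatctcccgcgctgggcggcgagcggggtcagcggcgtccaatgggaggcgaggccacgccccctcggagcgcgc

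Orc1 held 1 match, beginning 27 bases before the RefSeq start, and Pola1 held 1 match at 138 bases before it. Mcm5 held 2 matches that overlap on opposite strands, at 153 and 149 bases before the start. Mcm6 held 3, of which those at 110 and 106 bases before the start overlap in the same way and the third lies at 47 bases before it. Rrm2 held none of these letters in its window, which says nothing of whether an E2F protein binds there. High and low members thus both carry the motif letters, and the highest member does not.

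Across the table, 16 of 43 members (37.2%) held an E2F match, against 2.6% of all 27025 genes and 3.29% of 17492 protein-coding genes. By role, a match was found in 4 of 5 MCM genes, both licensing factors in the table (Cdc6 and Cdt1) and 2 of 6 origin recognition genes. A match was also present in 4 of 7 polymerase genes, and in 1 member each of origin firing (Gins3), clamp and loader (Rfc3), fragment maturation (Lig1) and chromatin assembly (Uhrf1). None of 3 RPA genes and none of 4 nucleotide supply genes held one. Members with a match had a median level of 92.9 TPM (12.9 to 223) and those without one 90.6 TPM (32.9 to 246), so the 2 sets had close medians and overlapping ranges. When only the 250 bases before the start were read, 10 of 43 members (23.3%) held a match, against 2.16% of all genes. The CCAAT box, read as CCAAT on either strand and bound by the factor NF-Y, was in 60.5% of members and 41.1% of all genes. Member windows were richer in G and C, at a median of 62.3% against 56.3% for protein-coding genes, and the part of base composition in these shares was not tested.

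**Figure D2:**
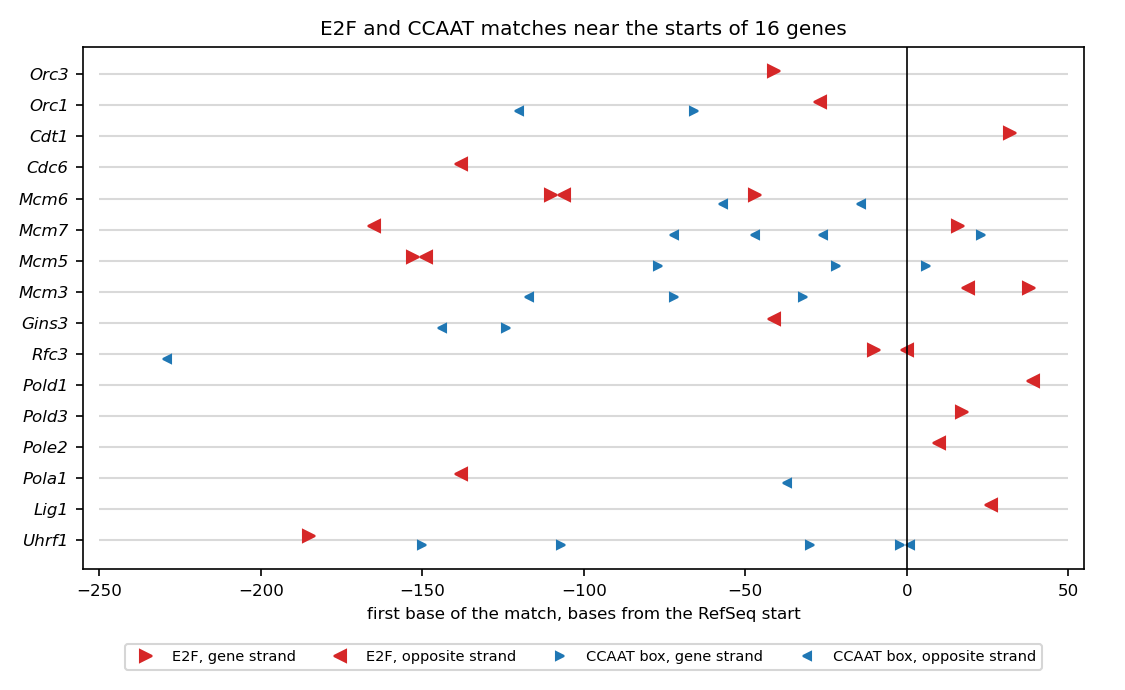
First base of each E2F match (red) and CCAAT match (blue) in the 16 members with an E2F match, in bases from the RefSeq start (0). Triangles point right on the gene's strand and left on the other, windows of a gene with 2 starts are overlaid, and the paired triangles of Mcm5 and Mcm6 are overlapping matches.

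The origin recognition complex, 6 subunits that mark origins, was the most uneven of the complexes compared, each taken by its member genes only. Its subunits ranged 7.47 ± 0.73-fold, from Orc1 to Orc4, with a median of 53.7 ± 3.16 TPM. Orc1 (chr4:108579423-108614833, + strand), the large ATPase subunit, stood at 11.8 and 13.9 TPM, below every other subunit in both libraries. Its level was 5.53-fold under the median of Orc2 to Orc6 (log2 ratio -2.47 ± 0.09). Without Orc1 the range of the complex was 2.90 ± 0.04-fold.

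The other ORC subunits fell into a lower and a higher set. Orc2 stood at 32.7 and 33.1 TPM and Orc5 at 34.7 and 38.2 TPM. The subunit Orc6, needed for MCM loading, stood at 68.2 and 73.6 TPM. Orc3 was at 87.2 and 92.0 TPM and Orc4 at 94.2 and 97.0 TPM, and no neighbours in this order overlapped. The order changed with the kind of transcript counted. Protein-coding transcripts held 26.5% of the TPM of Orc4, and on them alone Orc4 stood at 25.3 ± 1.04 TPM, above Orc1 but below the rest. On that measure Orc6 was the highest at 70.9 ± 3.82 TPM and Orc1 still the lowest at 9.67 ± 0.05 TPM. Orc2 shares 1150 of its 3857 exon bases with Nif3l1 on the opposite strand (47.0 and 46.2 TPM), and because strand is not stated, reads there cannot be assigned to one of the genes.

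The licensing factors split between the loaders and their inhibitor. Cdc6, the ATPase that joins ORC to load MCM, stood at 27.3 and 28.5 TPM. Cdt1, which carries MCM to the origin, was at 32.1 and 33.5 TPM. Geminin, encoded by Gmnn and the binding inhibitor of Cdt1, was higher at 90.6 and 93.5 TPM. Cdt1 was 2.80-fold under Gmnn (log2 ratio -1.49 ± 0.01), while Cdc6 and Cdt1 differed by 1.18-fold. In expected counts not divided by length the Cdt1 to Gmnn ratio shrank to a log2 value of -0.20. These RNAs are known to be used at different cell cycle stages, and a tissue average does not separate stages.

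The 6 subunits of the MCM ring, the replicative helicase, were high and nearly even. Mcm3 (123 and 128 TPM), Mcm5 (130.4 and 130.7 TPM), Mcm4 (136 and 139 TPM) and Mcm2 (139 and 137 TPM) lay within a 1.11 ± 0.03-fold range. Mcm7 at 198 and 199.9 TPM and Mcm6 at 219.8 and 227 TPM stood above them, so that the whole ring spanned 1.78 ± 0.01-fold. The libraries of Mcm2 and Mcm4 overlapped, and all other neighbours in the ring were apart. On protein-coding transcripts Mcm3 fell to 90.2 ± 3.80 TPM, because Mcm3-203, a retained-intron transcript of 716 bases, took 20.9% and 24.7% of its TPM. Mcm7 also hosts the microRNA genes Mir25, Mir93 and Mir106b, which are listed at 0 TPM in both libraries, for which the labels give a size range above 200. Its exons share 64 bases with Cops6 on the opposite strand, at 275 and 276 TPM.

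Origin firing genes were lower than the ring they act on, with a median of 44.6 ± 1.51 TPM. Cdc7, the kinase that phosphorylates MCM, stood at 45.2 and 43.7 TPM, and Dbf4, its activating subunit, at 41.2 and 43.5 TPM, a ratio of 1.05-fold. Cdc45, the helicase cofactor, stood at 46.2 and 42.0 TPM. The range of Cdc45 overlapped those of both Cdc7 and Dbf4. Mcm10, which helps the helicase start, stood at 37.3 and 32.2 TPM, 3.97-fold under the median of Mcm2 to Mcm7 (log2 ratio -1.99 ± 0.16).

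GINS, a complex of 4 subunits with 1 copy of each in the working helicase, had uneven RNA levels. Gins3 stood at 21.5 and 21.9 TPM, Gins1 at 48.8 and 48.7 TPM, Gins4 at 85.1 and 84.0 TPM and Gins2 at 94.8 and 89.2 TPM, a 4.25 ± 0.23-fold range. The place of Gins2 (chr8:120578633-120589304, - strand) depended on its transcripts. Gins2-204, a retained-intron transcript of 511 bases, held 72.5% and 67.5% of the gene's TPM. The coding transcript Gins2-201, of 3900 bases, held 19.3% and 22.8%, yet it received more expected counts, 1215 and 1920 against 495 and 615. On protein-coding transcripts Gins2 was the lowest GINS gene at 19.3 ± 1.48 TPM and Gins4 the highest at 84.6 ± 0.75 TPM. Gins2 shares 2758 of its 4097 exon bases with Gse1 on the opposite strand, which stood at 6.82 and 8.73 TPM.

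The sliding clamp stood well above its loader. Pcna, the ring that holds polymerases on DNA, was at 214.7 and 215.3 TPM, nearly the same in both libraries. The loader subunits were Rfc5 at 81.2 and 76.6 TPM, Rfc1 at 88.6 and 96.5 TPM, Rfc3 at 99.98 and 92.5 TPM, Rfc4 at 123 and 115 TPM and Rfc2 at 153 and 149 TPM. Pcna was 2.19-fold over the median of the 5 loader genes (log2 ratio 1.13 ± 0.04). The loader genes spanned 1.92 ± 0.04-fold, and Rfc1 and Rfc3 overlapped. Of the pseudogenes of Pcna, Pcna-ps2 was listed at 1.35 and 0.99 TPM and Pcna-ps1 at 0, with reads that match both gene and pseudogene divided by estimation.

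Polymerase genes covered a wide range, with a median of 52.4 TPM. Polymerase alpha with primase starts each new strand, and its 4 genes spanned 4.24 ± 0.16-fold. The catalytic gene Pola1 was the lowest at 18.9 and 18.02 TPM, and its partner Pola2 stood at 53.1 and 51.6 TPM, 2.83-fold higher. The primase genes were Prim1, the catalytic subunit, at 78.3 and 78.5 TPM and Prim2 at 32.5 and 35.1 TPM, a ratio of 2.32-fold.

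Polymerase delta, known for the lagging strand, had the highest polymerase genes among the members. For delta and epsilon, subunits outside the member list are left out of these values and ranges. The catalytic gene Pold1 of delta stood at 116 and 107 TPM, Pold2 at 106 and 101 TPM and Pold3 at 65.4 and 64.4 TPM. These 3 genes had a 1.72 ± 0.08-fold range. The 2 member genes of polymerase epsilon, known for the leading strand, were lower. The catalytic gene Pole stood at 28.9 and 33.0 TPM and Pole2 at 22.2 and 20.5 TPM. Pole was thus 3.61-fold under Pold1 (log2 ratio -1.85 ± 0.22). Pole and Pole2 did not overlap in gene TPM, but on protein-coding transcripts they stood at 21.3 ± 3.61 and 21.4 ± 1.18 TPM, within the spread.

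RPA, the trimer that coats single-stranded DNA, was the most even of the 8 complexes compared at gene level, with a 1.33 ± 0.02-fold range. Rpa2 stood at 114 and 109.8 TPM, Rpa1 at 118 and 113 TPM and Rpa3 at 149.6 and 147.9 TPM, and the libraries of Rpa1 and Rpa2 overlapped. On protein-coding transcripts the range widened to 2.04 ± 0.03-fold, since Rpa1-205, a retained-intron transcript of 716 bases, held 36.9% and 36.8% of the TPM of Rpa1. Rpa1 then stood at 72.0 ± 1.64 TPM.

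The genes that mature lagging-strand fragments lay within 1.27-fold of each other. Lig1, the ligase that seals them, stood at 96.1 and 97.9 TPM, 2.54-fold over Lig3, a ligase known for repair and mitochondria, at 38.8 and 37.5 TPM. Fen1, the flap nuclease, stood at 74.3 and 78.6 TPM. Rnaseh2a, the catalytic subunit of the enzyme that removes RNA primers and ribonucleotides, stood at 95.6 and 85.6 TPM. It was 2.11-fold over its partner Rnaseh2b (log2 ratios 1.19 and 0.96), so replicate 2 alone would put the pair just under a factor of 2. On protein-coding transcripts, 44.3 ± 5.83 TPM, that ratio was 1.42-fold. Both genes have active neighbours on the opposite strand: Rnaseh2a shares 177 exon bases with Prdx2 at 933 and 853 TPM, and Fen1 shares 130 with Tmem258 at 340.2 and 322 TPM. Fen1 also shares 1909 of its 2422 exon bases with the antisense gene Gm10143, at 7.71 and 5.85 TPM.

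Nucleotide supply held the highest member. Rrm2 (chr12:24708241-24714146, + strand), the S-phase small subunit of ribonucleotide reductase, stood at 239 and 253 TPM, and Rrm1, the large subunit, at 129.8 and 130.9 TPM. Their ratio was 1.89-fold. Rrm2b, the small subunit known for use outside S phase, stood at 7.01 and 5.98 TPM, so Rrm2 was 38.0-fold higher (log2 ratio 5.25 ± 0.22). Tk1, the cytosolic thymidine kinase, stood at 107 and 96.9 TPM, 6.36-fold over the mitochondrial kinase gene Tk2, and at 56.4 ± 1.83 TPM on protein-coding transcripts, where the ratio was 3.51-fold. Dut, which removes dUTP, stood at 132 and 137 TPM.

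Chromatin assembly genes followed the same order in both libraries. Uhrf1, which reads half-methylated DNA behind the fork, stood at 130.9 ± 1.27 TPM. The histone chaperone genes Chaf1b and Chaf1a stood at 77.8 and 82.0 TPM and at 50.6 and 51.6 TPM. Chaf1a shares 4648 of its 8854 exon bases with Ubxn6 on the opposite strand, at 51.1 and 50.2 TPM, so its value is uncertain. In all, 16 members share exon bases with an opposite-strand gene, and for 11 of them that gene was at 10 TPM or more in replicate 1. The same share over all protein-coding genes was not computed, so these counts only mark which values are uncertain.

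The comparison of origin licensing with the later steps rests on these levels. The 15 licensing genes (ORC, Cdc6, Cdt1, Gmnn and MCM) had a median of 92.0 ± 2.09 TPM and the other 36 members 85.8 ± 1.46 TPM, a log2 ratio of 0.06 in replicate 1 and 0.14 in replicate 2. That is far inside the 2-fold limit used here for calling a ratio, which is a log2 ratio beyond 1 with the same sign in both libraries. Against firing and fork genes the log2 ratio was -0.02 and 0.10, so its sign differed between libraries. It was 0.77 and 0.86 against the polymerase genes, 0.22 and 0.19 against the chromatin assembly genes, and -0.53 and -0.52 against the nucleotide supply genes, and none passed the limit.

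Within licensing the roles were split. Mcm2 to Mcm7 stood 3.78-fold over the other 9 licensing genes (log2 ratio 1.92 ± 0.09), and 1.60-fold over the 36 later members. The 9 genes that mark origins and load or block MCM stood 2.36-fold under the later members (log2 ratio -1.24 ± 0.12). Without the ring, the licensing ratio is therefore past the limit. With Mcm10 and Cdc45 moved to licensing the log2 ratio was 0.00071, and with means of log2(TPM + 1) in place of medians it was -0.0064.

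Of 21 ratios set up between partners, paralogs or steps, 11 passed the 2-fold limit, 6 with the first gene higher and 5 with it lower. They are the ratios of Orc1, Cdt1, Mcm10, Pcna, Pola1, Prim1, Pole, Lig1, Rnaseh2a, Rrm2 and Tk1 given above. How often other pairs of genes pass this limit was not computed, so the count is no measure of imbalance within complexes. The 10 that did not pass include partners at almost 1 to 1, such as Dbf4 and Cdc7 or Rpa2 and Rpa1, and wider ones such as Rrm2 over Rrm1 or Pold3 under Pold1 (1.72-fold). On protein-coding transcripts 10 ratios passed, 9 of them in both measures: Rnaseh2a over Rnaseh2b was lost, Pole over Pold1 could not be computed, and Rpa3 over Rpa1 passed at 2.04-fold. In expected counts not divided by length 5 of the 11 kept their call. The 6 that lost it were Cdt1 over Gmnn, Pcna over the loader genes (log2 ratio 0.81), Pola1 over Pola2 (-0.41), Prim1 over Prim2 (0.95), Lig1 over Lig3 (0.22) and Rnaseh2a over Rnaseh2b (0.25). Another 2 passed only there, Pole2 over Pole at -1.68 and Rpa3 over Rpa1 at -1.46, the latter with its sign reversed.

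**Figure D3:**
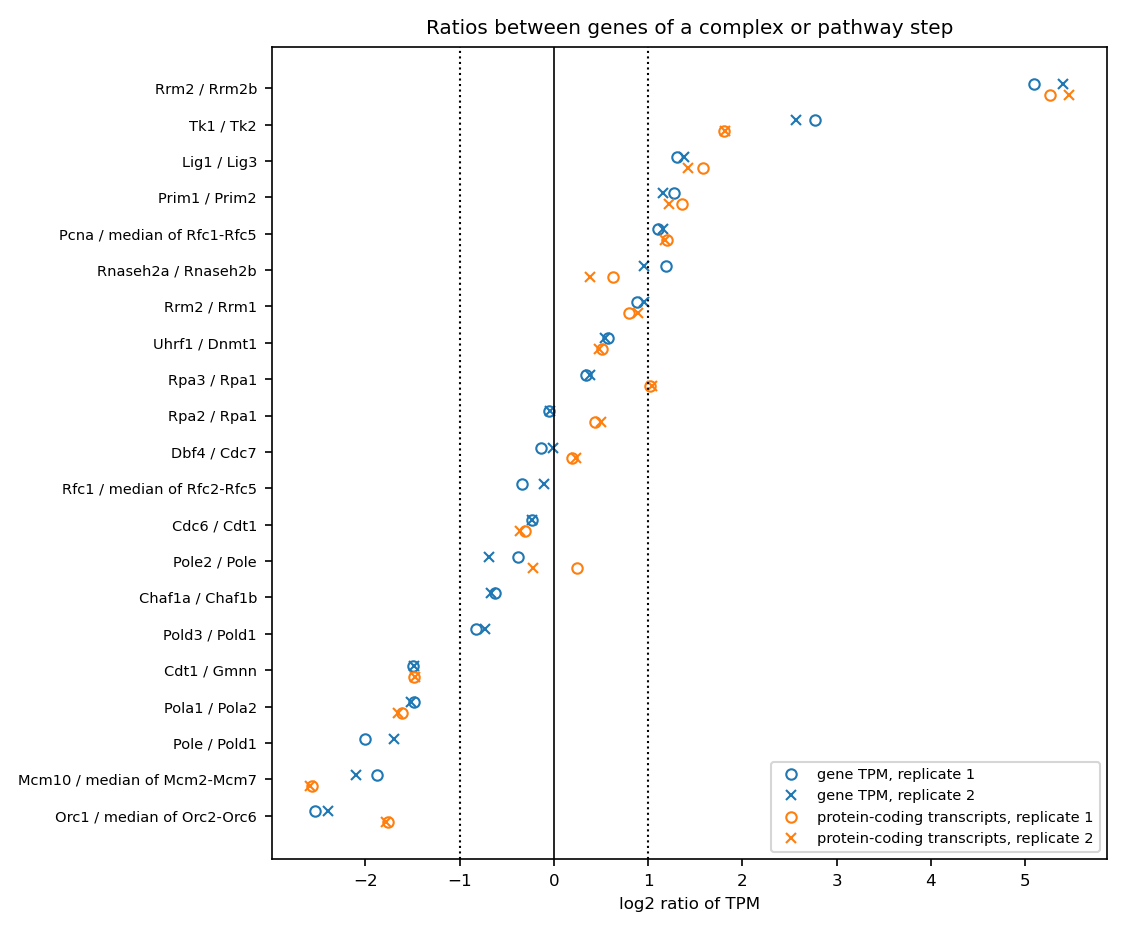
Log2 ratio of TPM for 21 gene pairs or gene and complex comparisons, for gene TPM (blue) and protein-coding transcripts (orange) in replicate 1 (circles) and replicate 2 (crosses), with the 2-fold limits dotted. The libraries lie close together, and Rnaseh2a over Rnaseh2b and Rpa3 over Rpa1 change sides between the measures.

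Transcript tables gave a readout that the choice of genes did not use. The members have 259 annotated transcripts, with 1 each for 10 members. In 43 of 51 members 1 transcript held at least 50% of the gene's TPM in both libraries, against 77.3% of protein-coding genes at 10 TPM or more. For 42 of the 43 it was protein-coding, and the exception was Gins2. The 10 members with 1 transcript are among the 43 by construction, so only the 41 with several could fall short. The share of genes with 1 transcript behind the 77.3% was not computed, so these values do not show whether members differ from other genes. The 8 members in which no transcript reached 50% in both libraries were Orc3, Orc4, Cdc7, Rfc1, Pole, Lig1, Fen1 and Rnaseh2a. They split in different ways: in Fen1 3 transcripts with the same coding length of 1140 bases held 41.2%, 32.0% and 26.8% of TPM on average. In Cdc7 the leading transcript differed between libraries, from the retained-intron Cdc7-207 at 32.8% to the coding Cdc7-203 at 37.8%.

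A coding transcript of 25% or more in both libraries, other than the most abundant transcript, was present in Cdc45, Fen1, Pole and Rnaseh2a. In Cdc45 it was Cdc45-202, at 44.0% and 41.1% beside 55.6% and 58.9% for Cdc45-201. In Pole it was Pole-203, of only 747 bases, at 25.5% and 31.3%, beside the full-length Pole-201 of 7163 bases at 37.1% and 34.9%. In Rnaseh2a it was Rnaseh2a-201, at 29.6% and 26.8%, beside the retained-intron Rnaseh2a-205 of 338 bases, at 37.1% and 38.2%. Rnaseh2a-201 was thus the leading coding transcript of Rnaseh2a and not a second one.

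The share of TPM on protein-coding transcripts was known for 48 members, with a median of 91.8% against 96.7% over protein-coding genes at 10 TPM or more. It was 100% in 14 members and under 50% in 3, Gins2 (21.1%), Orc4 (26.5%) and Rnaseh2a (48.8%), and 8.09% of the background genes were under 50%. On this measure 47 of the 48 members reached 10 TPM in both libraries, with Orc1 just below, and the median level was 62.9 TPM. The same share and median over all protein-coding genes were not computed on this measure. Rfc1, Pold1 and Chaf1b could not be split, because some of their transcripts are not in the annotation used for transcript types. A short transcript gains TPM from few reads, as Gins2 shows above, and the estimates for short transcripts are the less certain.

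**Figure D4:**
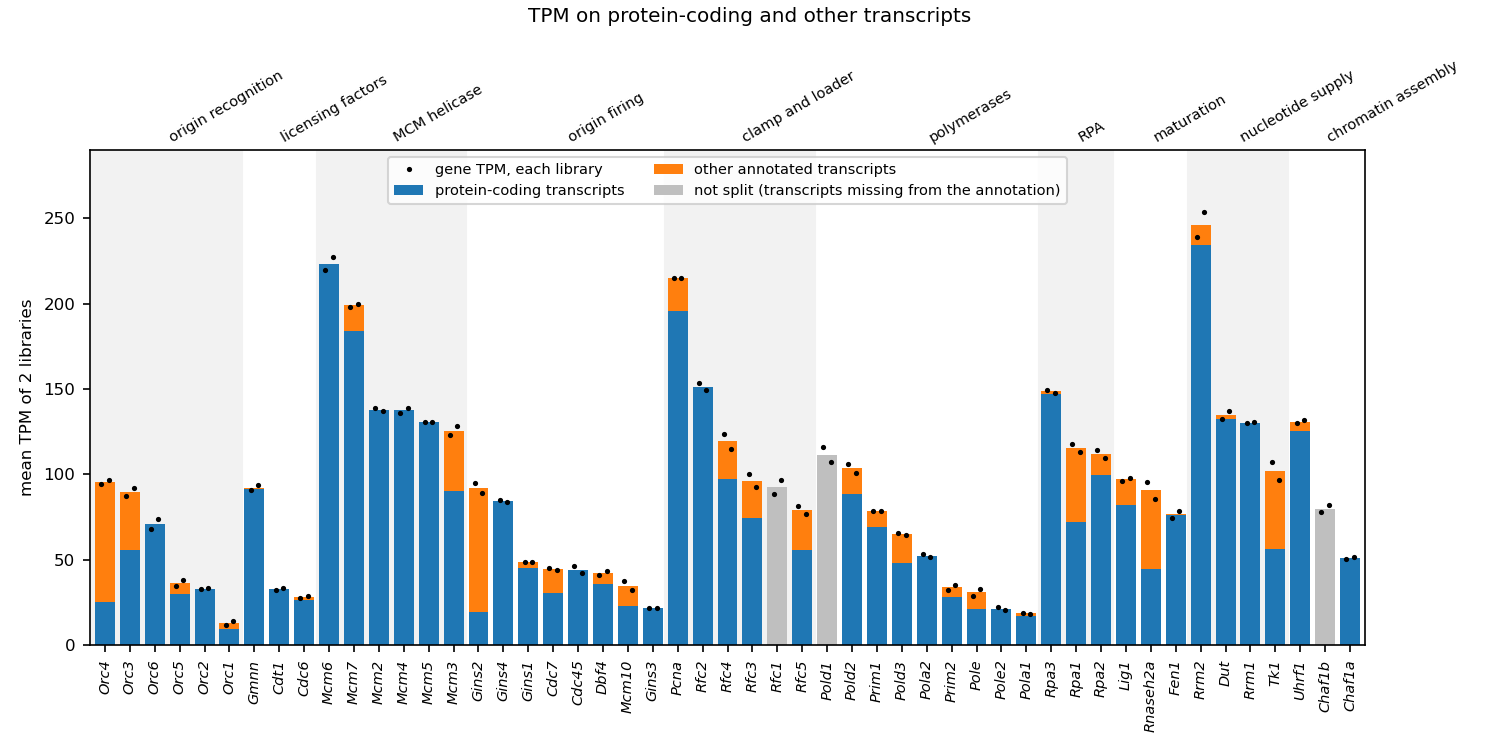
Mean TPM of each member over 2 libraries, split into protein-coding transcripts (blue) and other annotated transcripts (orange), with gene TPM of each library as points and unsplit genes in grey. Orange makes up most of the bar in Gins2, Orc4 and Rnaseh2a, and none of it in Rrm1 or Mcm2.

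The libraries were close for all members. The median log2 difference of TPM (pseudocount 1, replicate 2 minus replicate 1) was 0.01, and no member differed by over 0.5 either way. Among 13490 protein-coding genes at 1 TPM or more 2.38% did, 1.1% higher and 1.28% lower in replicate 2. Few did among the 9111 protein-coding genes at 10 TPM or more, where all members lie: 23 were higher and 47 lower. The absence of such members is therefore not particular to this list. The median size of the difference was 0.06 for members and 0.07 for protein-coding genes at 10 TPM or more. Over all genes the spread between the libraries, as edgeR's biological coefficient of variation, was 6.27%.

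The extremes in TPM were Orc1, at 0.22 higher in replicate 2, and Mcm10, at 0.21 lower in replicate 2 (log2 difference -0.21). These differences shrank to 0.03 for Orc1 and -0.09 for Mcm10 in expected counts scaled to depth but not divided by length. Both TPM differences lay outside the coding transcripts. Orc1 had 9.70 and 9.63 TPM on protein-coding transcripts and 2.09 and 4.31 TPM on the others. The coding Orc1-201 took 494 of the gene's 515 expected counts in replicate 1 and 695 of 754 in replicate 2. The TPM difference of Orc1 therefore rests on few reads. Mcm10 had 23.1 and 22.9 TPM on protein-coding transcripts and 14.2 and 9.29 TPM on the others, which are mostly retained-intron forms. Tk1 went from 107 to 96.9 TPM as a gene, with its coding part at 55.1 and 57.7 TPM. On protein-coding transcripts the extremes were instead Rnaseh2a (-0.26) and Pole (0.33).

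By role, the small differences were not evenly signed. All 6 ORC genes, all 3 licensing factors and 5 of 6 MCM genes were higher in replicate 2, 14 of 15 licensing genes, against 15 of the other 36 members and 51.2% of protein-coding genes. Only 2 of 8 firing genes and none of 3 RPA genes were higher there. In expected counts not divided by length the licensing count was 12 of 15, and the ORC count stayed at 6 of 6. On protein-coding transcripts 34 of 48 members were higher in replicate 2. These included 5 of 6 ORC, 3 of 3 licensing factor, 5 of 6 MCM, 5 of 8 firing and 1 of 3 RPA genes. Also among them were 4 of 5 clamp and loader, 4 of 8 polymerase and 1 of 3 maturation genes. All 4 nucleotide supply genes and both chromatin assembly genes that could be split were higher too. Licensing and later members thus differed less in sign on this measure, for which the share over all genes was not computed. Scaling TPM by the summed spike-ins shifted the median of all protein-coding genes to -0.12 and left 2 of 6 ORC genes higher, so the signs hold only relative to the bulk of genes. Cell type markers moved between the same libraries: the 3 neuronal genes summed to 261 and 194 TPM and the 3 muscle genes to 255 and 301 TPM, and their part in the member differences was not tested.

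**Figure D5:**
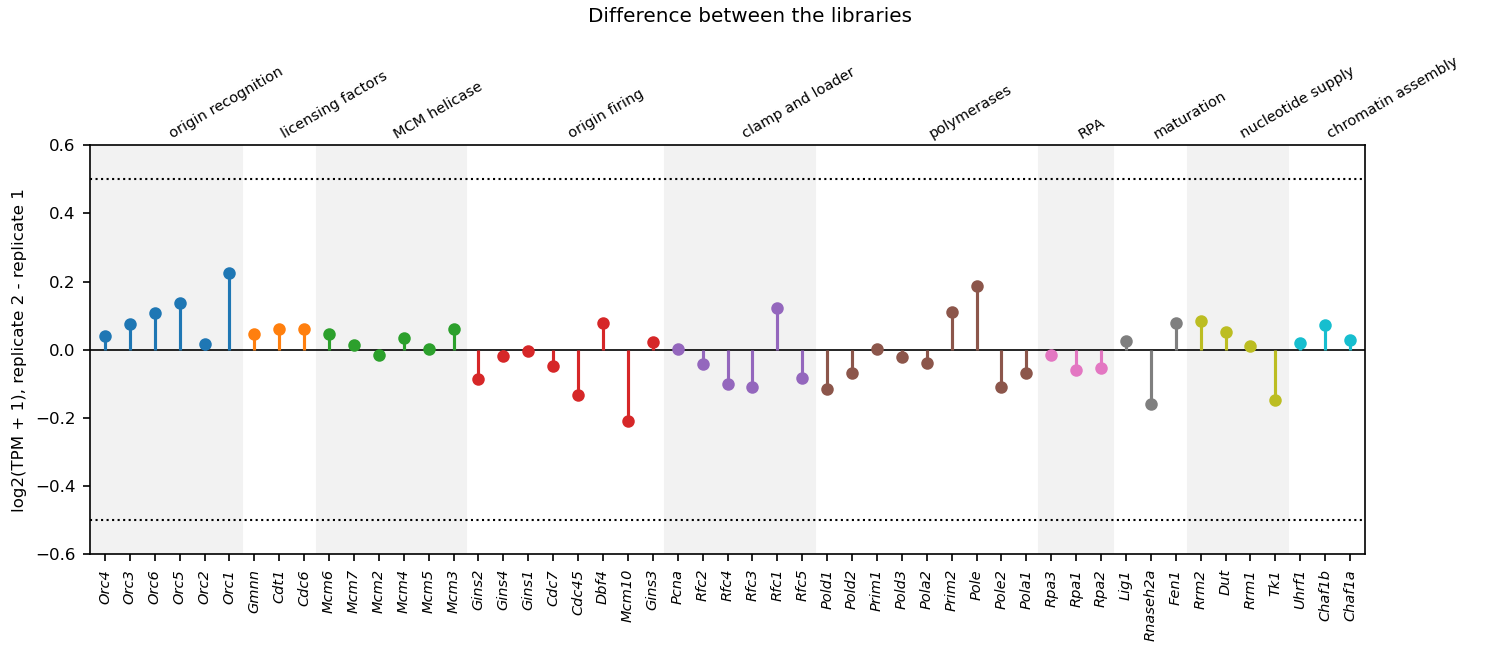
Log2 difference of TPM + 1 between the libraries (replicate 2 minus replicate 1) for each member, by role, with differences of 0.5 dotted. All points lie between -0.21 and 0.22, and the 6 ORC genes all lie above 0.

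Other genes of replication were lower as a list. Of 48 such genes that are not members, 44 were at 10 TPM or more in both libraries, with a median of 52.0 TPM. The highest were the histone chaperone subunit gene Rbbp4 at 415 ± 18.5 TPM, the ubiquitin ligase gene Ddb1 at 331 ± 1.81 TPM and the FACT subunit gene Ssrp1 at 255 ± 0.25 TPM. The lowest were Mcm9 at 6.2 ± 0.16 TPM, Rrm2b, and Ticrr, a firing factor, at 6.72 ± 0.21 TPM. With Recql4 at 7.51 ± 0.24 TPM, named after its value was seen, these are the 4 under the minimum, and 3 of them are in the initiation group of the list. The 9 other initiation genes had a median of 24.0 ± 0.23 TPM, lower than the 10 chromatin genes at 76.8 ± 1.96 TPM, a difference that was not tested.

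DNA polymerases for repair, damage bypass and mitochondria stood lower than the replicative ones. Of 12 such genes 7 reached 10 TPM in both libraries, and their median was 11.3 ± 0.12 TPM against 52.4 TPM for the 9 replicative genes. Polb, the base excision repair polymerase, was the highest at 56.3 ± 2.67 TPM and Poln the lowest at 0.60 ± 0.09 TPM. The ranges overlap, since Polb stood above 5 of the 9 replicative polymerase genes. None of the 8 such genes in the promoter table held an E2F match, and 10 of 40 other replication genes (25%) did.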

How the data were processed

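Total RNA libraries of 2 pools of facial prominence were used, as deposited per gene and per transcript. Reads were aligned to mm10 with GENCODE M4, per the deposited notes; the sources used here name no aligner, quantifier, strand setting or ribosomal depletion. The deposited expected counts are estimated reads, in which ambiguous reads are shared. The deposited TPM values divide counts by effective length and scale to the same library total, spike-ins included, and the deposited FPKM values scale by length and depth. The deposited percent values give each transcript's share of its gene's TPM. Per the title, another series supersedes this one.

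Names, coordinates and transcript types came from GENCODE M21 on the same build, and promoter windows from RefSeq GRCm38.p6. Levels are means of 2 libraries. A gene level minimum of 10 TPM, a pseudocount of 1 TPM, a log2 difference of 0.5 and a log2 ratio of 1 were the limits used, with no test. Python 3.11.15, pandas 2.3.3, R 4.3.3 and edgeR 4.0.16 were used. edgeR's common dispersion (TMM, genes kept by its default filter, counts rounded to whole numbers) was tested on simulated data. Poisson intervals are exact, at 95%.

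All 51 members are described. Of the 48 other replication genes, the 3 highest, the 3 lowest and those in a called ratio are named, of the other polymerases and tissue markers the extremes. Members, lists and ratios were chosen with earlier results of these data known. The processing alternatives changed the unit, minimum, pseudocount, scaling, grouping of roles and the library used, and values on protein-coding transcripts and the promoter settings were added after the data were seen.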

Additional observations from a re-analysis of the deposited data

How the results depend on the processing

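No paired analysis was possible because the series has 1 group. The number of members at the level minimum stayed between 47 and 51 under every alternative run, and leading transcripts between 38 and 45. The 47, on protein-coding transcripts, is out of the 48 members that could be split. Leaving out either library kept the counts within their limits; the members' median level was 88.6 to 89.2 TPM with 1 library left out. The median from both libraries, 90.6 TPM, lay above both of these by more than the 0.431 TPM spread between libraries. It also moved past that spread to 88.7 with posterior mean TPM, 100.1 with spike-ins and mitochondrial genes removed, and 62.9 on protein-coding transcripts. In other units, for which a spread in TPM gives no scale, it was 56.5 FPKM and 83.1 CPM. The median library difference became -0.12 when scaled by spike-ins, as did that of all protein-coding genes.

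The log2 ratio of licensing to later members was -0.0064 with means of logs, -1.24 without the MCM ring, 0.00071 with Mcm10 and Cdc45 as licensing and 0.32 on protein-coding transcripts. In CPM, expected counts scaled to depth but not length, the ratio to firing and fork genes was 0.22, to polymerase genes 0.13, to chromatin assembly genes -0.30 and to nucleotide supply genes -1.23. With means of logs these were -0.084, 0.63, -0.13 and -0.95, and on protein-coding transcripts the last 3 were 0.89, -0.32 and -0.89. The ratios on protein-coding transcripts leave out Rfc1, Pold1 and Chaf1b, which could not be split. They therefore cover 8 of 9 polymerase genes and 2 of 3 chromatin assembly genes, not the same sets as in gene TPM. In CPM 7 ratios within complexes passed, 5 of the 11 called in TPM and 2 others, and Rpa3 over Rpa1 went from 0.36 to -1.46, against 1.03 on protein-coding transcripts. The E2F count fell from 16 to 10 members in the shorter window and was 13 with TTTGGCGC and TTTCCCGC only. edgeR's variation between libraries was 6.27% to 6.75% over its settings. At gene level depth did not limit any member, whose counts were at least 515. No ratio called in TPM changed sign in these alternatives.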

Other observations

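The members were unevenly placed among chromosomes. Chromosome 5 held 9 of the 51 (17.6%), Cdc7, Dbf4, Mcm7, Orc5, Pole, Rfc1, Rfc2, Rfc3 and Rfc5, against 5.71% of protein-coding genes. Chromosome 8 held 7 (13.7%), among them Gins2, Gins3, Gins4, Cdt1 and Mcm5, against 4.75% of protein-coding genes. So 4 of the 5 clamp loader genes share 1 chromosome and 3 of the 4 GINS genes another. Their levels do not follow it: on chromosome 8, Gins3 stood at 21.7 ± 0.25 TPM and Gins4 at 84.6 ± 0.75 TPM, and on chromosome 5 the range ran from Pole at 30.9 ± 2.91 TPM to Mcm7 at 199 ± 1.42 TPM. These placements were noticed after the data were seen and were not tested.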
